A study of Homo sapiens with 29 samples.

Results

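The human kallikrein cluster on chromosome 19 was examined through 45 open regions, out of 166696 open regions in the whole series. They are the ATAC-seq peaks of 29 libraries that overlap chr19:51300000-51600000 in build hg19, merged wherever peaks of different libraries overlapped, and numbered here from 1 to 45 by position. ATAC-seq uses a transposase to cut accessible chromatin, so a peak marks a stretch where many sequenced cuts pile up. The 5 genes the window was chosen for are KLK3, KLK2, KLK4, KLK15 and KLK1. In RefSeq the order along the chromosome is KLK1, KLK15, KLK3, KLK2, the pseudogene KLKP1 and KLK4, followed by KLK5 to KLK14. Only the KLK3 start (51358171) and the KLK2 start (51376689) were placed in hg19. Positions of KLK4, KLK15 and KLK1 in that build were not used here, and no region was assigned to them.

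All libraries came from 22Rv1, a human prostate cancer cell line that expresses the androgen receptor. Parental cells gave 5 groups of 3 libraries: DMSO (0.1%), WX-02-23 (20 µM), WX-02-43 (20 µM), PladB at 10 nM and PladB at 100 nM. PladB is pladienolide B, a splicing inhibitor that binds SF3B1. WX-02-23 and WX-02-43 are small molecules that the labels call stereoprobes, and the series concerns covalent ligands of the pioneer factor FOXA1. Engineered cells gave 7 groups of 2 libraries, and all of these cells overexpressed Y36C-PHF5A, a form of a splicing factor subunit whose change at this residue is known to lower the response to pladienolides. The line with doxycycline (Dox)-inducible WT-FOXA1 received Dox with DMSO, Dox with WX-02-23 (20 µM), Dox with PladB (100 nM), or DMSO without Dox. The line with Dox-inducible C258A-FOXA1 received Dox with DMSO, WX-02-23 (20 µM) or PladB (100 nM). Every treatment with a compound or DMSO lasted 3 h. The dose and duration of Dox are not given in the labels. No deletion of endogenous FOXA1 is named in the labels, and whether a line is a clone, or whether replicates were separate cultures, is not said there. The p-values therefore measure only the spread between these libraries, which may be technical.

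Kallikreins are secreted serine proteases. KLK3 encodes prostate-specific antigen, which liquefies semen and serves as the blood marker of prostate cancer, and KLK2 encodes a close relative that can activate the KLK3 proenzyme. KLK4 is a further protease of prostate epithelium, KLK15 is a less abundant family member, and KLK1 is tissue kallikrein, which releases kinins from kininogen. In prostate cells the androgen receptor drives KLK3 and KLK2 from promoter-proximal elements and from a strong enhancer a few kilobases upstream of KLK3. FOXA1 opens chromatin at many androgen receptor sites, which is why this locus is a common readout for both factors.

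The promoters of the pair are shown because the peaks treated their starts differently, as described below. Of the 5 genes 4 matched the promoter table, all but KLK1. The sequences are those of RefSeq for build GRCh38.p14, 250 bases upstream of each start on the + strand, at chr19:50854665-50854914 for KLK3 and chr19:50873189-50873438 for KLK2. These coordinates belong to another build than the peaks and are not comparable with them. Capitals mark the hexamer AGAACA of the androgen response element in KLK3 and the 6 bases at the matching place in KLK2.
KLK3: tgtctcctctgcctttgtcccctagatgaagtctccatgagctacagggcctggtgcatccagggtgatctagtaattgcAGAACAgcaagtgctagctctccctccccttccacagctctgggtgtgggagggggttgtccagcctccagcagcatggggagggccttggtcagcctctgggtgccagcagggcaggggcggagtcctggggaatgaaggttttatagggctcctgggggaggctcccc
KLK2: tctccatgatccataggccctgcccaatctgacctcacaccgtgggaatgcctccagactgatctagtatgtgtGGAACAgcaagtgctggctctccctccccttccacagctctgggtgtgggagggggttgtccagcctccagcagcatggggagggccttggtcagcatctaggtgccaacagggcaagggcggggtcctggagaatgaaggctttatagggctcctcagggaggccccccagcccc
The sequences were identical at 199 of 241 aligned bases (82.6%), and both were rich in G and C (60.8% in KLK3 and 61.2% in KLK2). AGAACA began -170 bases from the KLK3 start and was found at no other place in the KLK3 or KLK2 window of 300 bases, on either strand. Over the 15 bases from there the promoters matched at 14, and the KLK2 sequence carried the substitution A1G, counted from the hexamer's 5′ end. AGAACA occurred in 14.9% of 27305 RefSeq promoters of the same length, so a match is common. The full palindromic androgen response element, of which AGAACA is an arm, and the forkhead letters TGTTTAC and TGTTTGC were found in neither promoter, nor in the KLK4 and KLK15 entries. They occurred in 0.00366%, 3.41% and 3.87% of all promoters.

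The KLK2 start lay inside a merged open region and the KLK3 start in none. Region 15 (chr19:51376220-51376732) covered the KLK2 start and had a peak in 29 of 29 libraries. Its median summit was -205 bp from that start, with a range of summits of 73 bp. Whether the peak of each single library reached the KLK2 start was not checked. No peak of any library reached the KLK3 start. The nearest open bases were 2641 bp upstream, at the edge of region 11, and 3774 bp downstream, at the edge of region 12. The lowest summit called anywhere in a list held 5 to 8 reads, but the background around KLK3 was raised, as given below, and the lowest summits called at the nearby regions 6 and 8 held 23 and 20 reads. Farther off on the raised stretch, region 16 (34.9 kb) was called with as few as 15 reads. The lowest signal detectable at the KLK3 start was not determined, so weak signal there may have gone uncalled. How reads that match both genes were placed is not stated in the labels.

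Around the KLK3 start a pair of open regions lay upstream and a single region downstream. Upstream, region 10 (chr19:51353751-51354777) and region 11 (chr19:51354829-51355530) had median summits at -4.0 kb and -3.1 kb from the KLK3 start, the distance at which the androgen-responsive KLK3 enhancer is known to lie. Downstream, region 12 (chr19:51361945-51362783) had its median summit at 4.2 kb. Region 13 (14.7 kb) and region 14 (15.7 kb) followed, at -3.8 and -2.8 kb from the KLK2 start, before region 15 at the KLK2 start. All 6 were present in 29 of 29 libraries.

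Farther upstream, region 9 (-10.4 kb), region 7 (chr19:51345303-51346003, -12.4 kb), region 5 (-17.4 kb), region 4 (-18.7 kb), region 2 (chr19:51321065-51322181, -36.4 kb) and region 1 (chr19:51307435-51308503, -49.9 kb) were present in every library. Regions 3, 6 and 8 were found in 19, 7 and 10 libraries. Of the 11 regions upstream of the KLK3 start, 8 were thus open in all libraries, as were 4 of 4 between the KLK3 and KLK2 starts and 10 of 30 beyond the KLK2 start. The widest stretch without a peak, 25235 bp, lay between region 38 (174.9 kb) and region 39 (200.5 kb).

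The window held many regions shared by all libraries. Of its 45 regions, 22 (48.9%) had a peak in all 29 libraries, against 35901 of 166696 (21.5%) over the genome, and 2 (4.4%) were found in a single library, against 28093 (16.9%). The median width was 453 bp in the window and 351 bp over all regions. Among regions found in all 29 libraries the medians were closer, with a width of 786.5 bp against 765 bp and a summit of 48 reads against 39. These shares describe the window and were not tested.

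**Figure D1:**
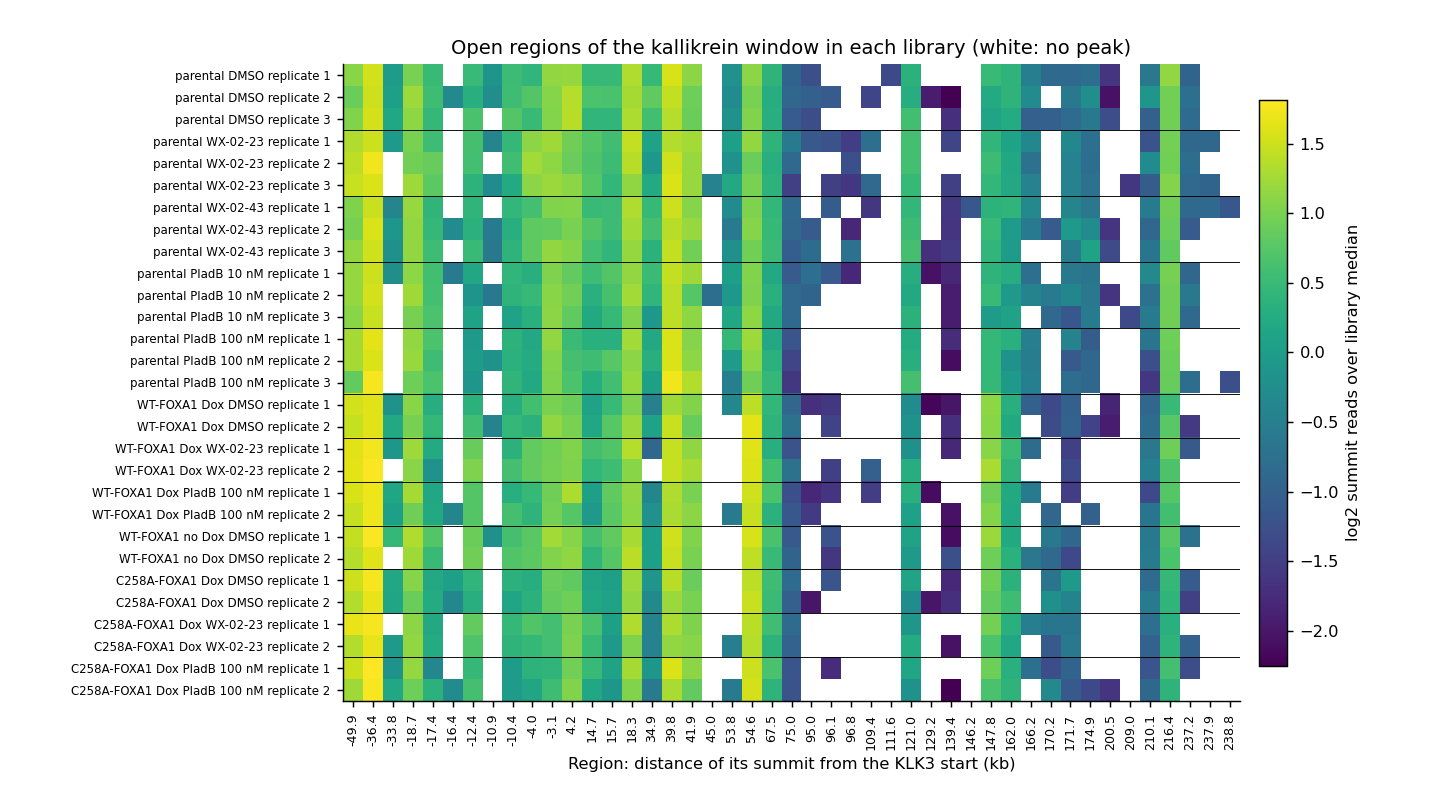
Summit reads of the 45 regions (columns, labelled by distance of the summit from the KLK3 start in kb) in 29 libraries (rows), as log2 of the reads over the library's median, with white where a library had no peak. The 22 regions found in all libraries lie mainly between -49.9 and 75.0 kb, and 2 regions appear in a single library.

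The authors' fold enrichment and the height of the peaks ranked the regions differently. By the deposited fold over local background, region 29 (chr19:51478972-51479424, 121.0 kb) ranked first in 14 of 29 lists and region 12 in 9. The fold of region 12 ran from 9.67 to 17.29 across lists, with a median of 13.46, and that of region 29 from 9.71 to 15.65, with a median of 13.61. By reads at the summit, recovered as whole numbers from the deposited fold and p-value, region 2 ranked first in 26 of 29 libraries, with 78 to 124 reads and a median of 97. Region 29 held 24 to 56 reads and region 12 held 38 to 87. The fold divides by the background around the summit, and that background was uneven in this window.

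The stretch around KLK3 and KLK2 lay on a raised plateau of reads. In regions 1 to 21, from -49.9 to 54.6 kb, the median local background was 4.27 to 10.7 times the background of the library. Region 22 at 67.5 kb stood at 2.94 and region 23 at 75.0 kb at 1.43. Farther on the ratio varied, from 1.0 at region 39 (200.5 kb) to 4.71 at region 35 (166.2 kb). A raised background was thus not confined to the stretch around KLK3 and KLK2. In zones, the median ratio was 6.96 upstream of the KLK3 start, 8.04 from the KLK3 to the KLK2 start and 2.85 beyond the KLK2 start. Per library, the median over the window was 3.81 to 7.93, above the 1.65 to 2.24 over whole lists. The local background includes the reads of the peaks themselves and of their neighbours, and how much of the plateau lies outside peaks was not tested.

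**Figure D2:**
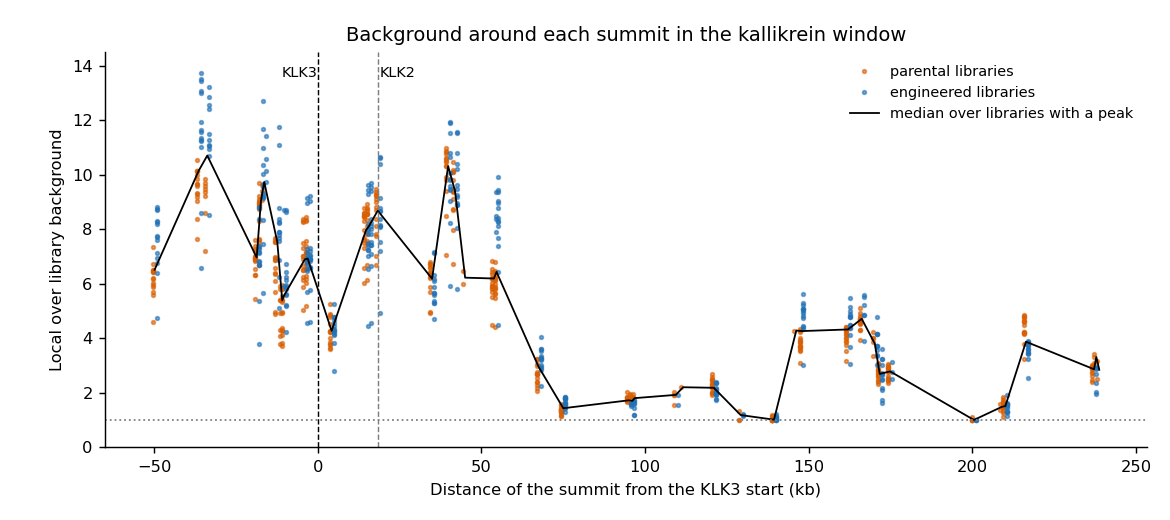
Local background over library background at each peak (points, parental and engineered libraries in different colours) against the distance of the summit from the KLK3 start, with the median over libraries as a line, the dotted line at 1 and dashed lines at the KLK3 and KLK2 starts. The median stays between 4.27 and 10.7 from -49.9 to 54.6 kb and drops to 1.43 at 75.0 kb. It rises again farther on, to 4.71 at 166.2 kb.

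Each library had a peak in 25 to 37 of the 45 regions, with a median of 30. Parental DMSO libraries held 34, 37 and 33, a mean of 34.7 ± 2.08 (SD, n = 3). WX-02-23 libraries held 33.7 ± 4.04 (SD, n = 3), WX-02-43 libraries 34.7 ± 1.53 (SD, n = 3) and PladB 10 nM libraries 33.0 ± 2.65 (SD, n = 3), all overlapping the DMSO range. PladB 100 nM libraries held 28 to 29 regions, a mean of 28.7 ± 0.58 (SD, n = 3), and did not overlap the DMSO range of 33 to 37. As a share, PladB 100 nM libraries had a peak in 63.7% of the window's regions and 46.1% of all regions, and DMSO libraries in 77.0% and 52.1%. The PladB 100 nM libraries also had the lowest background of the parental cells, 0.662 to 0.734 reads per base against 0.881 to 1.002 in DMSO. The part of this depth in the difference was not tested, and with lists cut to equal length the difference from DMSO went from -6.0 to -3.67 regions.

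In the engineered lines the WT-FOXA1 cells with Dox and DMSO held 32.5 ± 0.71 regions (SD, n = 2). With WX-02-23 they held 26.5 ± 2.12 (SD, n = 2), with PladB 30.0 ± 0.0 (SD, n = 2), and without Dox 30 and 28. The C258A-FOXA1 cells held 30.5 ± 0.71 with DMSO, 27.5 ± 2.12 with WX-02-23 and 30.0 ± 1.41 with PladB (SD, n = 2 each). The WT-FOXA1 lists differed in length as a whole, with 85009 to 88140 peaks for Dox and DMSO, 62832 to 67815 for WX-02-23 and 67195 to 69814 without Dox. Of all regions, the WT-FOXA1 libraries had a peak in 47.2% to 49% with Dox and DMSO and 34.5% to 37.4% with WX-02-23. The shares were 39.1% to 49.2% with PladB and 36.7% to 38.2% without Dox. The C258A-FOXA1 libraries had a peak in 46.6% to 48.4% of all regions with DMSO. With WX-02-23 this share was 42.2% to 51.6%, and with PladB 40.8% to 42.5%. At equal list length the WX-02-23 difference in the WT-FOXA1 line went from -6.0 to -0.5 regions, the PladB difference from -2.5 to 1, and the difference between Dox and no Dox from 3.5 to -2.5.

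**Figure D3:**
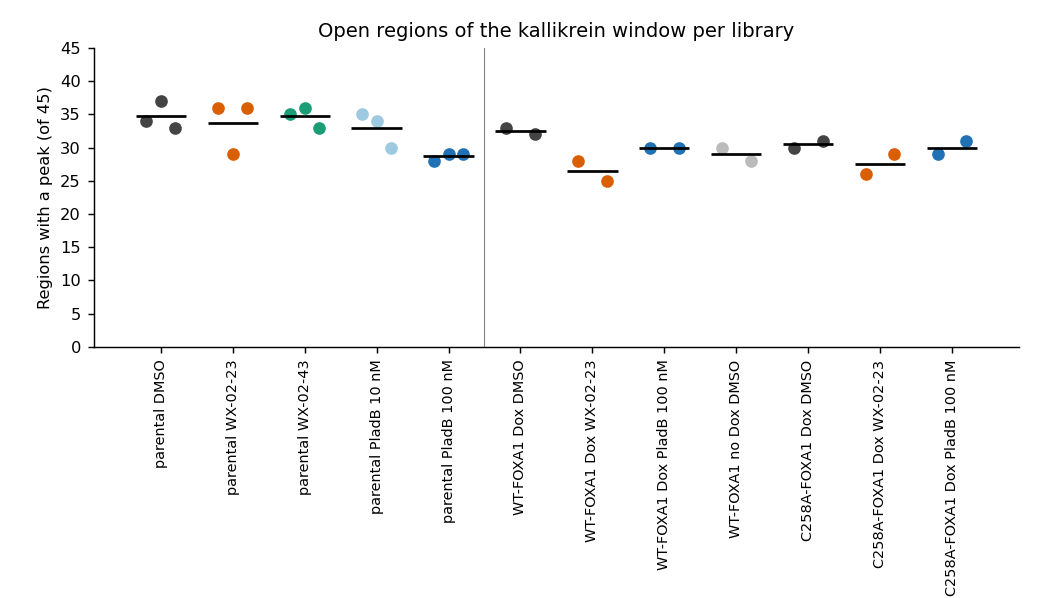
Number of the 45 regions with a peak in each library (points), by group, with the group mean as a line; parental groups stand left of the vertical line. PladB 100 nM lies at 28 to 29 in parental cells, below the 33 to 37 of DMSO, and WX-02-23 in the WT-FOXA1 line at 25 to 28, below the 32 to 33 of its control. The shares of all regions with a peak were lower too, with means of 46.1% against 52.1% for parental PladB 100 nM. For WX-02-23 in the WT-FOXA1 line they were 34.5% to 37.4% against 47.2% to 49%.

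Few regions of the window appeared or disappeared with treatment. A region was called gained when every library of the treated group and no library of the control had a peak, and lost in the reverse case. In parental cells WX-02-23 gained 1 region, region 26 (chr19:51454853-51455197, 96.8 kb), and lost 1, region 39 (chr19:51558573-51558856, 200.5 kb), of 43 held by either group. Over the genome 1.82% of regions were gained and 1.18% lost in this comparison. WX-02-43 gained and lost 0 in the window (0.34% and 0.369% over the genome), PladB 10 nM gained and lost 0 (0.408% and 0.556%), and WX-02-23 against WX-02-43 gave 0 of each (1.6% and 1.07%). PladB 100 nM gained 0 (0.187%) and lost 3 (1.68%), which were region 3 (-33.8 kb), region 24 (76.5 kb from the KLK2 start) and region 39. Leaving out a library makes the rule easier to meet, so a count can then only stay or rise. For WX-02-23, 3 regions were lost without WX-02-23 replicate 1 and 2 without DMSO replicate 2, and 2 were gained without WX-02-23 replicate 2.

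Region 26 held few reads wherever it was called. Its summits had 13, 14 and 11 reads in the WX-02-23 libraries, 11 and 21 in the WX-02-43 libraries with a peak and 10 in a PladB 10 nM library. No engineered library had a peak there. Against the other 12 parental libraries, of which 3 had the peak, Fisher's exact test (two-sided) gave p = 0.044 and an adjusted p of 1. Over all 135804 regions tested that way 0 passed an adjusted p of 0.05 (0%), the smallest adjusted p was 0.286, and 4978 had an unadjusted p under 0.05, of which 1 was in the window. The smallest p that 3 against 12 libraries can give is 0.0022, so a region passes only if many regions reach that floor together. The 0 calls therefore say little about single regions. With 3 against 3 libraries the smallest possible p is 0.1.

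Region 39 was present in 9 libraries and always near the limit of detection. It held 10, 8 and 13 reads in the parental DMSO libraries and 10 and 9 in the WT-FOXA1 libraries with Dox and DMSO. It also had a peak in 2 WX-02-43 libraries, in 1 PladB 10 nM library and in 1 C258A-FOXA1 library with PladB. None of the parental WX-02-23 or PladB 100 nM libraries had a peak there, nor the WT-FOXA1 libraries with WX-02-23, with PladB or without Dox, nor the C258A-FOXA1 libraries with DMSO or WX-02-23.

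In the WT-FOXA1 line WX-02-23 gained 0 regions (1.31% over the genome) and lost 2 (11.7%), region 36 (170.2 kb) and region 39. PladB gained 0 (0.915%) and lost region 39 alone (3.05%). Dox against no Dox gained region 39 (13.2%) and lost 0 (1.1%). In the C258A-FOXA1 line WX-02-23 gained 0 (2.37%) and lost 1 (2.55%), region 6 at -16.4 kb, and PladB gained 0 (0.806%) and lost 0 (4.67%). With 2 libraries a group, leaving out 1 library makes the rule easier to meet, so these counts could only stay or rise. WT-FOXA1 WX-02-23 then lost 3 to 5 and WT-FOXA1 PladB lost 1 to 3. Dox against no Dox gained 1 to 4, and C258A-FOXA1 WX-02-23 lost 1 to 4. All the regions gained or lost in any comparison had a median summit of at most 35 reads, and none was among the 22 found in all libraries.

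The height of the lasting peaks gave a finer measure. Summit reads were divided by the library's median over the regions with a peak in every parental, or every engineered, library, and tested with limma over 54404 regions in parental cells (26 in the window) and 37262 in engineered cells (22 in the window). A scaled value of 1 is the library's median. This test was added after the values had been seen. In bulk cells, a higher value can come from more cells with the site open or from more cuts per cell, and these cannot be told apart.

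On this scale WX-02-23 raised 2 regions upstream of the KLK3 start and lowered 2 regions downstream of it in parental cells, out of 26. Over all 54404 regions tested 3.78% rose and 5.42% fell, so these are shares of the same order. The largest change was at region 10, the -4.0 kb enhancer site. Its summit reads were 42, 56 and 45 in DMSO and 80, 79 and 71 in WX-02-23, or 1.35, 1.65 and 1.41 against 2.16, 2.39 and 2.15 after scaling. The groups did not overlap on either scale. The scaled difference was 0.61 in log2 (SE 0.11), a ratio of 1.53, with an adjusted p of 9.36e-06 in limma. Region 11, less than 1 kb away, differed by 0.09 (95% interval -0.08 to 0.26, adjusted p = 0.63).

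Region 1 at -49.9 kb rose as well. It held 66, 63 and 66 reads in DMSO and 93, 88 and 92 in WX-02-23, and the scaled difference was 0.40 (SE 0.09, adjusted p = 0.000481). Region 16 (chr19:51392780-51393385), 34.9 kb from the KLK3 start and 16.4 kb from the KLK2 start, fell. Its reads were 43, 60 and 48 in DMSO and 40, 31 and 39 in WX-02-23, and the scaled difference was -0.54 (SE 0.13, adjusted p = 0.00177). Scaled values were 1.39 to 1.76 in DMSO and 0.94 to 1.18 in WX-02-23, with no overlap.

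Region 12 at 4.2 kb, the nearest open site downstream of the KLK3 start, fell from scaled values of 2.26, 2.56 and 2.59 in DMSO to 1.92, 1.85 and 2.15 in WX-02-23. The difference was -0.32 (SE 0.09, adjusted p = 0.00995). This call was lost without DMSO replicate 2 (-0.30, adjusted p = 0.0633), DMSO replicate 3 (-0.29, 0.0763) or WX-02-23 replicate 2 (-0.28, 0.0847). The median difference was 0.03 over the 26 and 0 over all regions.

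These calls depended on the scaling. Divided by the library background instead of the library median, the differences were 0.56 for region 10 (adjusted p = 0.0595), 0.35 for region 1 (0.375), -0.59 for region 16 (0.0562) and -0.38 for region 12 (0.315), all in the same direction and none past 0.05. On that scale 0.895% of all regions were higher and 2.41% lower.

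At the KLK2 start itself the peak did not differ beyond its error between WX-02-23 and DMSO in parental cells. Region 15 held 78, 82 and 80 reads in DMSO and 101, 86 and 73 in WX-02-23, and the scaled values overlapped. Its difference was 0.02 (95% interval -0.14 to 0.18, adjusted p = 0.939). In order, the scaled values of the parental groups were 2.52 ± 0.27 in WX-02-23, 2.48 ± 0.06 in DMSO, 2.39 ± 0.13 in WX-02-43, 2.27 ± 0.11 in PladB 100 nM and 2.23 ± 0.17 in PladB 10 nM (SD, n = 3 each), and neighbours in this order overlapped. Groups farther apart did not all overlap. PladB libraries, at 2.15 to 2.37 (100 nM) and 2.06 to 2.39 (10 nM), lay below the DMSO range of 2.41 to 2.52. The engineered groups ran from 2.17 ± 0.20 in WT-FOXA1 with Dox and DMSO to 2.54 ± 0.15 without Dox (SD, n = 2 each). The ranges of these last groups, 2.03 to 2.31 and 2.43 to 2.64, did not overlap. In limma region 15 passed in none of these comparisons. Region 2, the tallest peak of the window, differed by 0.07 (95% interval -0.07 to 0.21, adjusted p = 0.629).

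WX-02-43 at the same dose and time left no region past the threshold. Region 10 held 50, 66 and 61 reads, or 1.52, 1.74 and 1.74 after scaling, overlapping the DMSO range and below all WX-02-23 libraries. Region 12 differed from DMSO by -0.26 (95% interval -0.44 to -0.08, adjusted p = 0.424), beside -0.32 with WX-02-23. Its scaled values with WX-02-43, 2.0 to 2.09, lay below the DMSO range of 2.26 to 2.59. The lowest adjusted p among the 26 regions was 0.424, and 2 had an unadjusted p under 0.05, a share not computed over all regions. Over all regions 0.00184% rose and 0.0496% fell in limma at an adjusted p under 0.05, and 0% and 0.0331% with the library background.

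Compared directly, WX-02-23 was above WX-02-43 at regions 1 and 10 and below it at region 16. The difference was 0.36 at region 1 (adjusted p = 0.00284), 0.43 at region 10 (adjusted p = 0.00374) and -0.40 at region 16 (adjusted p = 0.0388), where 3.3% of all regions were higher and 4.21% lower. Scaled by the library background these were 0.51 (0.0696), 0.58 (0.0493) and -0.24 (0.517), where 1.93% of all regions were higher and 0.829% lower. The region 10 call was lost without WX-02-23 replicate 2 (0.38, adjusted p = 0.0516) or WX-02-43 replicate 1 (0.36, 0.0522). The region 16 call was lost without WX-02-23 replicate 1 (-0.41, 0.0777) or 2 (-0.31, 0.245), or WX-02-43 replicate 1 (-0.40, 0.0883) or 2 (-0.33, 0.207). At region 12 the libraries held 71, 61 and 71 reads with WX-02-23 and 69, 76 and 73 with WX-02-43, and the direct difference was -0.06 (95% interval -0.24 to 0.12, adjusted p = 0.769).

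**Figure D4:**
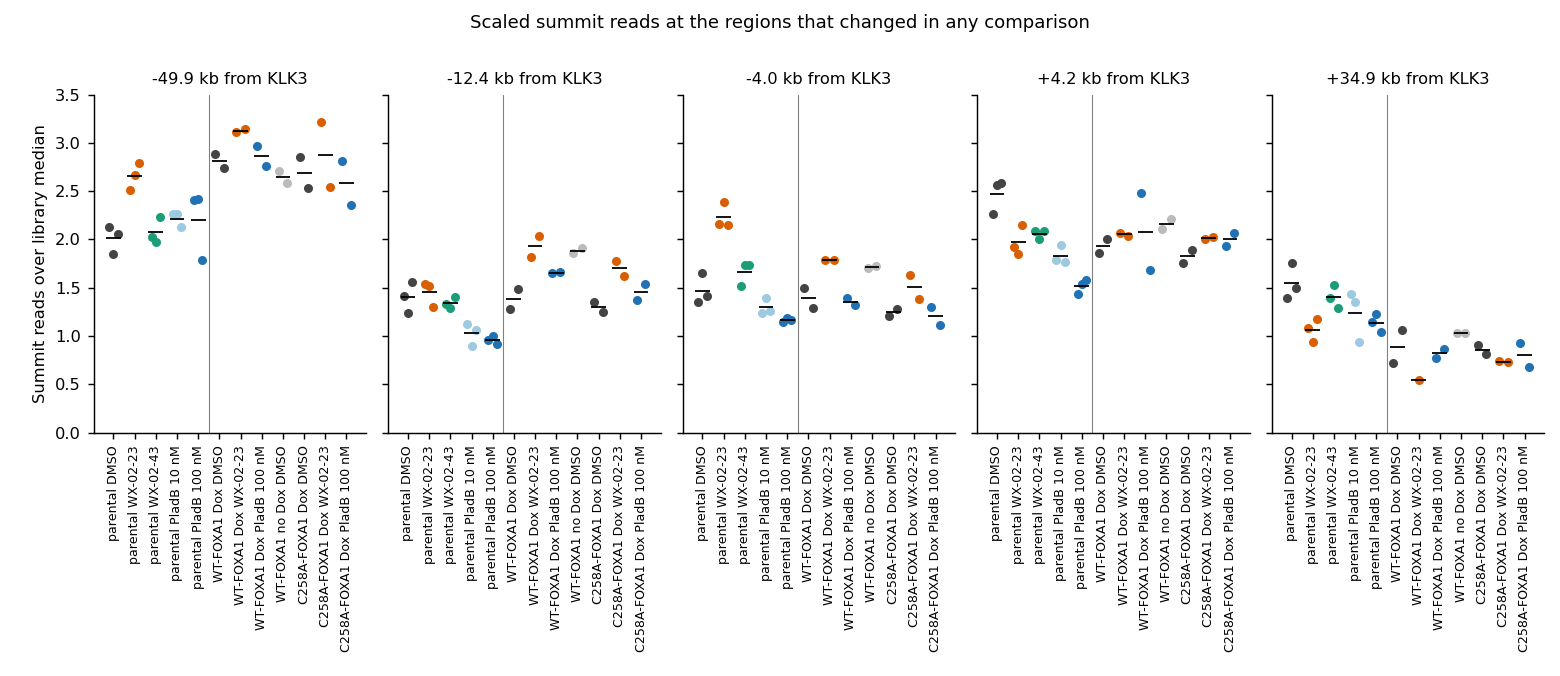
Summit reads over the library median at the 5 regions that passed the test in any comparison (panels, by distance from the KLK3 start), each point a library and each line a group mean; parental groups stand left of the vertical line. At -4.0 kb the parental WX-02-23 libraries lie at 2.15 to 2.39 and the DMSO libraries at 1.35 to 1.65, and at 4.2 kb the PladB 100 nM libraries lie at 1.44 to 1.58, below the DMSO range of 2.26 to 2.59.

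PladB, which shares its DMSO controls with the stereoprobe comparisons, lowered region 12 at both doses. Reads there were 61, 60 and 55 at 10 nM and 39, 40 and 38 at 100 nM, against 70, 87 and 83 in DMSO. Scaled values were 1.77 to 1.94 at 10 nM and 1.44 to 1.58 at 100 nM, both below the DMSO range. The difference from DMSO was -0.43 at 10 nM (SE 0.09, adjusted p = 0.0115) and -0.70 at 100 nM (SE 0.09, ratio 0.617, adjusted p = 5.58e-08). At 10 nM no other window region passed, region 7 at -12.4 kb differing by -0.45 (adjusted p = 0.0998). Over all regions 0.0974% rose and 0.165% fell at 10 nM. The 10 nM call was lost without DMSO replicate 2 (-0.40, adjusted p = 0.0812), DMSO replicate 3 (-0.39, 0.123), PladB replicate 1 (-0.41, 0.0655) or PladB replicate 3 (-0.40, 0.0726).

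At 100 nM, 4 of 26 regions fell and 0 rose, against 2.12% and 7.66% of all regions. Besides region 12 these were region 7 at -12.4 kb (-0.54, adjusted p = 0.00208), region 16 (-0.44, adjusted p = 0.0169) and region 10 (-0.32, adjusted p = 0.037). Region 7 held 26, 26 and 22 reads against 44, 42 and 50 in DMSO. Region 10 held 31, 31 and 28 reads, and its scaled values of 1.15 to 1.19 lay below the DMSO range. The region 10 call was lost without any PladB library (adjusted p = 0.0555 to 0.0814) and without DMSO replicate 2 (0.24) or 3 (0.0575), and the region 16 call without DMSO replicate 2 (0.151) or PladB replicate 3 (0.0889). Scaled by the library background, the 4 differences were -0.62 for region 12 (adjusted p = 0.123), -0.47 for region 7 (0.411), -0.37 for region 16 (0.464) and -0.25 for region 10 (0.57). On that scale 0.0386% of all regions were higher and 0.0257% lower at 100 nM. At 10 nM that scaling gave -0.43 for region 12 (adjusted p = 1) and called 0% of all regions. The lower depth of the PladB 100 nM libraries, given above, moved with these calls, and its part in them was not tested.

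**Figure D5:**
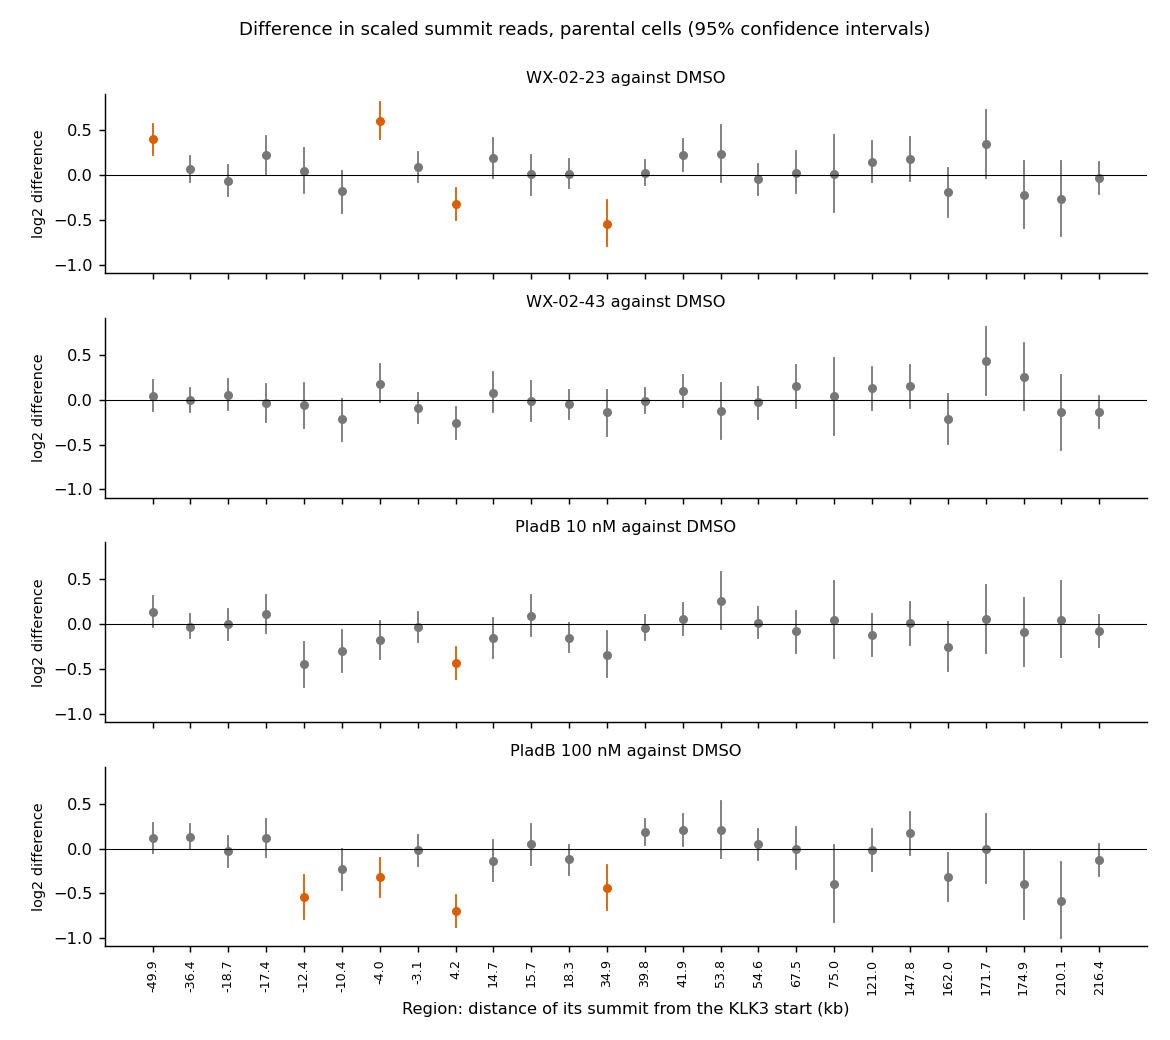
Log2 difference in scaled summit reads from DMSO for the 26 window regions tested in parental cells (points, ordered by distance from the KLK3 start) with 95% confidence intervals, 1 panel for each treatment; orange marks an adjusted p under 0.05 in limma. WX-02-23 has orange points at -49.9, -4.0, 4.2 and 34.9 kb, WX-02-43 has none, and the 4 orange points of PladB 100 nM all lie below 0.

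In the WT-FOXA1 line region 7 was the only one of 22 window regions to pass with WX-02-23. It held 46 and 52 reads with DMSO and 51 and 57 with WX-02-23, or 1.28 and 1.49 against 1.82 and 2.04 after scaling. The difference was 0.48 (SE 0.13, adjusted p = 0.0154), where 1.63% of all regions rose and 1.47% fell. Divided by the library background region 7 differed by -0.17 (adjusted p = 0.37). That scaling moved the median of all regions by -0.66, to -0.63, so region 7 stayed above the median and only the point of reference changed. Under it 17 of 22 window regions and 78.8% of all regions were lower, and 0 of 22 and 0.0778% were higher. The call was also lost without DMSO replicate 1 (0.37, adjusted p = 0.309) or WX-02-23 replicate 2 (0.40, 0.207). Region 10, at 54 and 45 reads with DMSO and 50 and 50 with WX-02-23, had scaled values of 1.5 and 1.29 against 1.79 and 1.79 and did not pass.

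Dox against no Dox lowered region 7 in the WT-FOXA1 line, from 65 and 63 reads to 46 and 52. The difference was -0.45 (SE 0.13, adjusted p = 0.0395), against 0.172% of regions lower and 1.55% higher over the genome. Leaving out any of the 4 libraries ended the call (adjusted p = 0.0562 to 0.582), and so did the library background (-0.55, adjusted p = 0.21), where 0.059% of all regions were lower and 0.714% higher. PladB in the WT-FOXA1 line changed 0 of 22 regions and 0% of all regions in either direction at an adjusted p under 0.05. Of the 22, 2 had an unadjusted p under 0.05, a share not computed over all regions.

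In the C258A-FOXA1 line WX-02-23 changed 0 of 22 regions in limma at an adjusted p under 0.05, where 0.633% of all regions rose and 0.389% fell. Of the 22, 4 had an unadjusted p under 0.05, and the share of all regions under that unadjusted threshold was not computed. With the library background 0.0778% of all regions rose and 0.0859% fell. PladB changed 0 of 22 and 0% over the genome at an adjusted p under 0.05. Of the 22, 1 had an unadjusted p under 0.05, a share likewise not computed over all regions. Region 7 differed by 0.38 (95% interval 0.13 to 0.64, adjusted p = 0.144), beside 0.48 in the WT-FOXA1 line. Region 10 there held 41 and 46 reads with DMSO and 44 and 51 with WX-02-23, or 1.21 and 1.28 against 1.63 and 1.38 after scaling.

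Whether the WX-02-23 change differed between the WT-FOXA1 and C258A-FOXA1 lines was tested as an interaction, and 0 of 22 window regions passed. The lowest adjusted p was 0.814 and 0 had an unadjusted p under 0.05. Over all regions 0.0188% were higher and 0.0107% lower at an adjusted p under 0.05. With the library background, which moved the median of all regions by -0.57, 1 window region was lower, region 5 (-0.91, adjusted p = 0.0341), as were 12% of all regions. With 2 libraries a group this does not show that the lines respond alike.

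Beside the parental values, the WX-02-23 change at region 10 averaged 0.61 in parental cells on the log2 scale, 0.36 with WT-FOXA1 and 0.27 with C258A-FOXA1, each against the line's own DMSO. At region 1 the means were 0.40, 0.15 and 0.09, and at region 7 they were 0.05, 0.48 and 0.38. Scaled by the library background, the WT-FOXA1 values turned to -0.29 at region 10 (adjusted p = 0.14) and -0.51 at region 1 (adjusted p = 0.00622), where the median of all regions was -0.63. On that scale the parental values were 0.56 and 0.35 and those with C258A-FOXA1 0.19 and 0.01. Region 16 changed by -0.54 in parental cells and -0.22 in the C258A-FOXA1 line, and in the WT-FOXA1 line 1 of 2 WX-02-23 libraries had no peak there and the other held 15 reads. The parental cells were not tested against the engineered lines. By their peak names, the 15 parental lists share a processing folder and the 14 engineered lists share a different one, so cell line and processing cannot be told apart. Presence at some regions, named here after their values were seen, also differed between these sets. Region 38 at 174.9 kb had a peak in 15 of 15 parental and 3 of 14 engineered libraries. Region 20 at 53.8 kb had a peak in 15 and 4, and region 36 at 170.2 kb in 5 and 11. The engineered lists held 62832 to 92658 peaks and the parental lists 82538 to 98193. The share of all regions split in such a way was not computed.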

How the data were processed

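Accessibility was measured by ATAC-seq using an Active Motif kit (per the labels' protocols). The submitters' processing notes name Bowtie2, MACS2 and hg19, without versions or options. Each library has its own peak list, so replicates were not pooled. Per peak, the authors deposited a score, a ratio (fold enrichment over local background), p-values and q-values as -log10, and the summit offset. The lowest -log10 q was 2 to 2.15 per list. The deposited score was not analysed.

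Peaks of all 29 lists were merged (overlap of at least 1 bp) into 166696 regions. The window, the members, the motifs and the lists were chosen with earlier results of these data known. Regions named were those at the KLK3 and KLK2 starts, those in all 29 libraries, those gained or lost in any comparison and the top region by fold, with regions that passed the read test added later.

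The authors' fold and p together fix whole summit reads and the local background, as (reads + 1) / (background + 1) with a Poisson p. Whole reads were recovered for 99.98% to 100% of peaks per list, within 0.002 in -log10 p. Read totals were not used here. The library background, 0.546 to 1.502 reads per base, stands for relative depth. The local background moved in steps of 0.015 reads per base. Log2 reads were scaled by the library median and tested with limma 3.58.1 (trend, R 4.3.3), with Benjamini-Hochberg adjustment over all regions tested. Only regions with a peak in every library of the fit entered, so sites that dropped below detection are missing. This test was chosen after the values were seen. Presence was tested with Fisher's exact test (scipy 1.17.1). Data were also simulated from the region means and summit read totals of all 15 parental libraries. The spread between simulated libraries was assumed and not estimated from the data. For WX-02-23 against DMSO there, limma recovered 50.5% of 200 regions changed 2-fold among 54404 and called 0.009% of unchanged regions. Both rates depend on the assumed spread.

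Deviations of same-numbered libraries from their group means correlated at -0.02 to 0.03. In groups of 2 libraries these deviations are opposite by construction, so this check cannot exclude that same-numbered libraries were prepared together. Other settings tried were a stricter q-value (1e-05), equal list lengths, 50% of the region covered, a replicate block, each library left out in turn and, added later, scaling by library background.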

Additional observations from a re-analysis of the deposited data

Results flagged for a closer look

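In 5 cases every library of parental cells moved one way and every library of an engineered line the other way under the same compound, each scaled summit value being set against the mean of its own DMSO controls. None of these differences was tested. The parental and engineered lists came from different processing folders, by their peak names, so cell line and processing cannot be told apart. Only window regions that had passed limma with that compound in any line were searched, so their values helped to pick them. The share of all regions with such opposite changes was not computed. At region 12, 4.2 kb downstream of the KLK3 start, the log2 change with WX-02-23 was lower in parental cells by -0.41 than in the WT-FOXA1 line and by -0.47 than in the C258A-FOXA1 line. The parental libraries changed by -0.42 to -0.20, the WT-FOXA1 libraries by 0.08 to 0.10 and the C258A-FOXA1 libraries by 0.13 to 0.15. With scaling by the library background the parental and WT-FOXA1 changes at region 12 had the same sign (-0.38 and -0.57, the latter beside a median of -0.63 over all regions), so the opposite direction there holds only with the library median. The C258A-FOXA1 change was then 0.06. At the same region PladB at 100 nM changed the parental libraries by -0.77 to -0.64 and the C258A-FOXA1 libraries by 0.08 to 0.18, a difference of -0.83. At region 7, at -12.4 kb, PladB at 100 nM changed the parental libraries by -0.61 to -0.48, the WT-FOXA1 libraries by 0.26 to 0.27 and the C258A-FOXA1 libraries by 0.08 to 0.24. These differences were -0.81 for the WT-FOXA1 line and -0.70 for the C258A-FOXA1 line. The PladB changes kept their opposite signs with the library background: -0.62 in parental cells and 0.29 with C258A-FOXA1 at region 12, and -0.47, 0.21 and 0.32 at region 7.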

How the results depend on the processing

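The replicate number as a block changed none of the calls, gained and lost counts being the same by construction: with the replicate block, region 10 kept an adjusted p of 7.52e-06 and region 12 at PladB 100 nM one of 6.58e-08 (limma). Presence calls rest on peaks near the detection limit. For regions per library 81 of 90 alternatives stayed within their spread, and for gained or lost counts 127 of 180 stayed within 1.5 times. These totals include the replicate block, which could not differ for these measures. They also include counts of 0 under both settings, which scored as unchanged. The presence test stayed at 0 under 18 alternatives, an outcome that its smallest possible p left little room to change. At a q-value of 1e-05 or below, parental WX-02-23 gained 0 and lost 0. At that threshold WT-FOXA1 WX-02-23 lost 6, WT-FOXA1 PladB lost 4, Dox against no Dox lost 1 and differed by 1.5 regions per library, C258A-FOXA1 WX-02-23 lost 2, and C258A-FOXA1 PladB lost 2 and differed by -3. With lists of equal length, parental WX-02-23 lost 0, PladB 100 nM differed by -3.67, WT-FOXA1 WX-02-23 lost 1 and differed by -0.5, and C258A-FOXA1 PladB lost 1. At equal length the sign turned for WT-FOXA1 PladB (1 region per library, with 1 gained and 0 lost) and for Dox against no Dox (-2.5, with 0 gained and 1 lost). With 50% of the region covered, parental WX-02-23 gained 0 and lost 2, WX-02-23 against WX-02-43 lost 1, and PladB 100 nM lost 5 and differed by -9.33. With that rule WT-FOXA1 WX-02-23 lost 5 and differed by -10, Dox against no Dox gained 2, C258A-FOXA1 WX-02-23 lost 2, and C258A-FOXA1 PladB lost 3 and differed by -4. Apart from equal list length, which leaves out the weaker peaks of longer lists, the cause of these shifts was not tested.

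Scaling by the library background left 0 higher and 0 lower regions for parental WX-02-23, 1 higher and 0 lower for WX-02-23 against WX-02-43, 0 lower for PladB 10 nM and 0 lower for PladB 100 nM. For WT-FOXA1 WX-02-23 it gave 0 higher and 17 lower, where 78.8% of all regions were lower, and turned region 7 to -0.17, for Dox against no Dox 0 lower, and for the interaction 1 lower, where 12% of all regions were lower. This scaling moved the median of all regions by -0.21 for WX-02-43, 0.15 for WX-02-23 against WX-02-43, 0.07 for PladB 100 nM, -0.66 for WT-FOXA1 WX-02-23, 0.16 for C258A-FOXA1 PladB, -0.10 for Dox against no Dox and -0.57 for the interaction, so a call on it is relative to another reference.

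Leaving out each library in turn, gained counts ran from 1 to 2 for parental WX-02-23, 0 to 1 for WX-02-43, 0 to 1 for WT-FOXA1 WX-02-23, 0 to 1 for WT-FOXA1 PladB, 1 to 4 for Dox against no Dox, 0 to 1 for C258A-FOXA1 WX-02-23 and 0 to 3 for C258A-FOXA1 PladB. Lost counts ran from 1 to 3 for parental WX-02-23, 0 to 1 for WX-02-23 against WX-02-43, 0 to 1 for PladB 10 nM, 3 to 5 for WT-FOXA1 WX-02-23, 1 to 3 for WT-FOXA1 PladB, 1 to 4 for C258A-FOXA1 WX-02-23 and 0 to 2 for C258A-FOXA1 PladB. Regions with higher reads ran from 1 to 2 for WX-02-23 against WX-02-43 and 0 to 1 for WT-FOXA1 WX-02-23. Regions with lower reads ran from 1 to 2 for parental WX-02-23, 0 to 1 for WX-02-23 against WX-02-43, 0 to 1 for PladB 10 nM, 2 to 5 for PladB 100 nM, and stayed at 0 for Dox against no Dox. A group left with 1 library is assumed to vary like the others. For single regions, 69 of 108 alternatives kept the call, 38 kept the direction without it and 1 turned it.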
